A study of Mus musculus with 2 samples.

Results

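The genes described here are 29 lysosome and cathepsin genes, taken by symbol from the 27998 genes of the count tables, and each symbol was listed once. They were measured in liver non-parenchymal cells (all liver cells other than hepatocytes, isolated by perfusion and a density gradient) of mice on a methionine- and choline-deficient diet, which causes steatohepatitis, for 8 weeks. The study compared 1 library of PKM2FL/FL mice, in which the pyruvate kinase gene Pkm carries loxP sites, with 1 library of PKM2ΔMAC mice, whose label names a deletion of the enzyme's M2 form in macrophages. Both libraries shared the diet, and the 2 are called FL/FL and ΔMAC below. The Cre driver, the age and sex of the mice and the number of mice behind each library were not given in the sources used here. Each genotype has 1 library, so every difference below is between 2 libraries. No test between genotypes is possible, and every interval covers counting error only.

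Lysosomes are the acid organelles in which macrophages break down what they have engulfed, and in fatty liver they also handle the lipid of dying hepatocytes. Proteases called cathepsins, glycosidases and lipases do the digestion, and a proton pump (the V-ATPase) keeps the lumen acid. Transmembrane proteins line the lysosome, and Npc1 and Npc2 export the cholesterol that lysosomal acid lipase frees. The transcription factor TFEB binds an E-box element in the promoters of many lysosomal genes, and Tfeb is 1 of the 29 genes.

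The promoters are shown because that element is the sequence feature known to tie such genes together. RefSeq promoter windows of build GRCm38.p6, running from 250 bases before to 50 bases after each start, were found for 25 of the 29 genes, all but Ctsb, Ctsh, Asah1 and Npc1. The core of the element, CACGTG, reads the same on both strands. It was present in a window of 8 of the 25 genes (32%), in 16 of 58 other lysosomal genes (27.6%) and in 1615 of 17999 genes of the count tables (8.97%). These shares describe the letters of the windows only. Lamp1, a major lysosomal membrane glycoprotein, held the most sites, 4, and Lipa, the lysosomal acid lipase described by class below, held none. The 250 bases before each start are given 5′ to 3′ on the gene's strand, for Lamp1 at chr8:13158911-13159160 (+) and for Lipa at chr19:34527475-34527724 (-), with CACGTG in capitals.
Lamp1: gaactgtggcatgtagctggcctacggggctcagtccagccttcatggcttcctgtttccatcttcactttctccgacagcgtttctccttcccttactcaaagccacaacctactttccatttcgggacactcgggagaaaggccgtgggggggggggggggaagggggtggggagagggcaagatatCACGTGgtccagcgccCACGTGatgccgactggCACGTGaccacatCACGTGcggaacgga
Lipa: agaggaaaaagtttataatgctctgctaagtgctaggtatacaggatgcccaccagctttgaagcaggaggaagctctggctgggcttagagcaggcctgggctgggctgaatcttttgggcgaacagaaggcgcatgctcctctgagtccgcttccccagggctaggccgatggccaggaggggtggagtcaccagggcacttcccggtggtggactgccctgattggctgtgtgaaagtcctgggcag

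The other 7 genes with the core are shown as short stretches around 1 site each, so that the bases beside it can be compared. The start is that of the RefSeq window, which need not be the first base of the gene. By gene annotation, the Lgmn and Atp6v1a stretches lay in an intron, and those of Ctsa, Ctsd and Ctsl overlapped an exon. Lgmn and Ctsa each had another window, without the core. The site lay 12 bases before the start in Ctsa (chr2:164833751-164833776, +), 98 in Ctsd (chr7:142387910-142387935, -) and 3 in Atp6v0d1 (chr8:105566052-105566077, -). It lay 140 bases before the start in Gaa (chr11:119267813-119267838, +), 49 in Lgmn (chr12:102439126-102439151, -), 236 in Ctsl (chr13:64370741-64370766, -) and 131 in Atp6v1a (chr16:44139375-44139400, -).
Ctsa: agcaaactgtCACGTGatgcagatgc
Ctsd: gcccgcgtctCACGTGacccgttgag
Atp6v0d1: ctactgcggtCACGTGagacgcggtg
Gaa: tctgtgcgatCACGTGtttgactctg
Lgmn: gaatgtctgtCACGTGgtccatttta
Ctsl: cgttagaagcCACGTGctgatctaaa
Atp6v1a: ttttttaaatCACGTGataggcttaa

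The FL/FL table held 10054 cell barcodes with 54519921 unique molecular identifiers (UMIs, each 1 captured transcript), and the table of ΔMAC cells held 8949 barcodes with 43134027. After removal of low-quality cells and called doublets, 9510 and 8549 cells remained, with medians of 4384 and 3716 UMIs. Cells were placed in classes by lists of marker genes, and 16.2% met no list. Of the classes, 18 had at least 10 cells in each library and are described, and 9 had at least 50 in each and are compared. A level is the counts of a gene per 1000000 UMIs of the class (CPM), and since the 3′ method counts a transcript once, levels of genes can be set side by side without a length correction. A ratio is ΔMAC over FL/FL with an exact 95% interval. Pkm itself, read from its 3′ end where its M1 and M2 forms cannot be told apart, stood at 310 and 141 CPM in Kupffer-like cells, 741 and 338 in neutrophil-like cells and 231 and 164 in T-like cells. Large differences in a pair of other genes stand beside what follows. Lyz2, a lysozyme gene of myeloid cells, stood at 20060 CPM in FL/FL classical monocyte-like cells and at 14.6 in ΔMAC, and it was therefore left out when cells were placed in classes. S100a8, an abundant transcript of neutrophils, was higher in ΔMAC in neutrophil-like cells (35641 and 62008 CPM). It was also higher there in Kupffer-like cells (293 and 1381) and T-like cells (32.1 and 61.9).

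Lysosome and cathepsin transcripts took their largest share of summed UMIs in the macrophage-like classes, less clearly so in ΔMAC. In the FL/FL library they made up 2.06% of all UMIs in lipid-associated macrophage-like cells and 1.63% in Kupffer-like cells. The former were gated by markers of fatty-liver macrophages, Trem2 and Gpnmb among them, and the latter by markers of resident macrophages. Plasmacytoid dendritic-like cells gave 1.19% and classical monocyte-like cells 1.13%. Endothelial-like cells gave 0.819%, type 2 dendritic-like cells 0.703% and neutrophil-like cells 0.496%. At the low end were B-like cells with 0.260%, NK or ILC1-like with 0.212%, smooth muscle-like with 0.209%, basophil or mast-like with 0.201% and T-like cells with 0.196%. The ΔMAC library gave the same separation of macrophages and lymphocytes, with 1.87% in Kupffer-like and 0.176% in T-like cells. Its lipid-associated macrophage-like cells gave 1.33% (1.27 to 1.40), which overlapped classical monocyte-like cells (1.27%, 1.25 to 1.30). Plasmacytoid dendritic-like cells gave 1.21% there. The median over single ΔMAC cells was 1.09% in lipid-associated macrophage-like, 1.31% in classical monocyte-like and 1.29% in plasmacytoid dendritic-like cells. Averaged over the libraries, 10 of the 29 genes were highest in Kupffer-like cells, 8 in lipid-associated macrophage-like cells and 3 in plasmacytoid dendritic-like cells. The highest class was the same in both libraries for 18 genes, and it was at least 5 times the median class for 14.

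**Figure D1:**
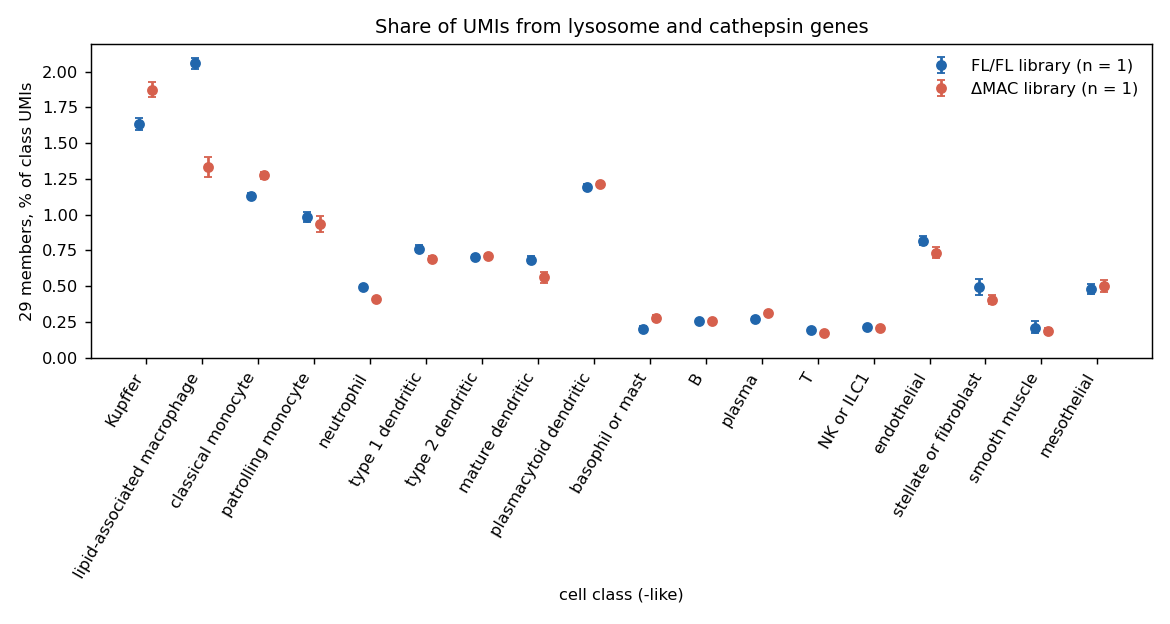
Share of each class's UMIs that came from the 29 genes (y axis, percent) by class (x axis) in the FL/FL and ΔMAC libraries, with bars of the exact 95% counting interval. Macrophage-like classes lie above 1.3% in both libraries and T-like cells below 0.2%.

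**Figure D2:**
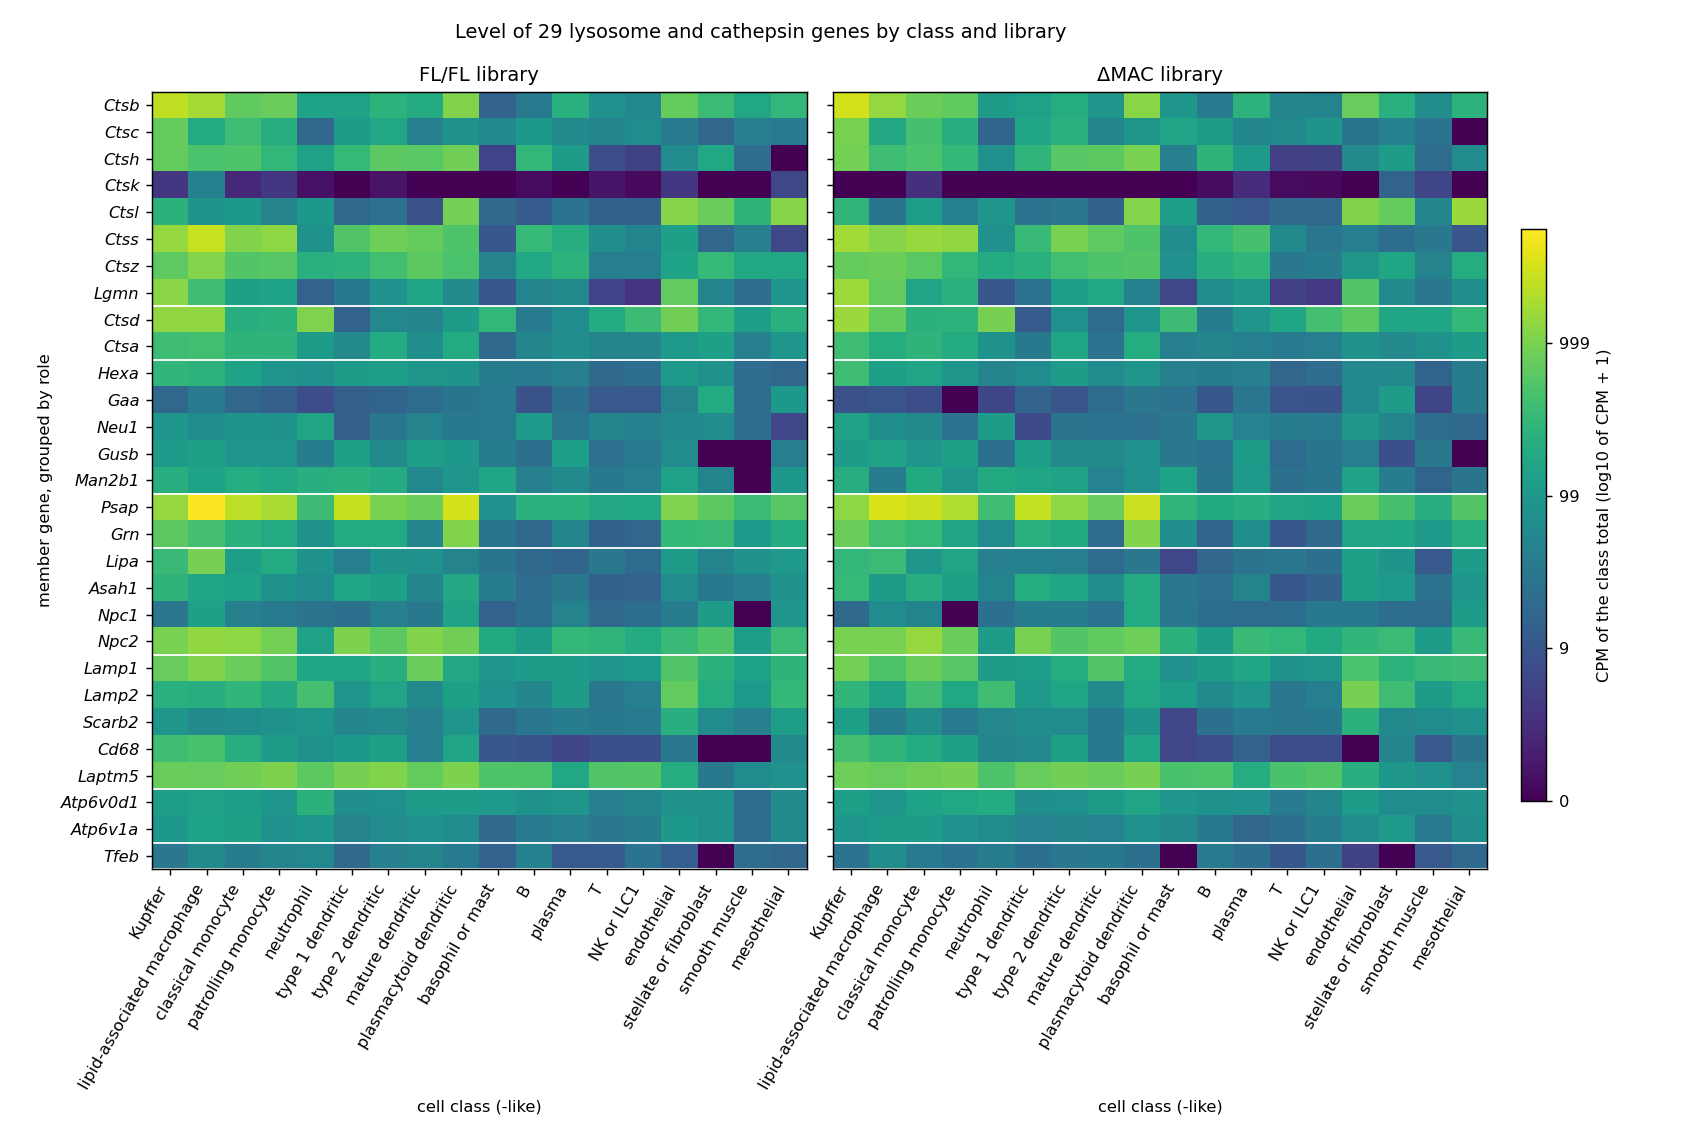
Level of each of the 29 genes (rows, grouped by role) in each class (columns) in the FL/FL and ΔMAC libraries, as CPM of the class total on a log colour scale. Cathepsin rows other than Ctsl and Ctsh are strongest in the macrophage-like columns, except that of Ctsk in ΔMAC. The Laptm5 row is nearly even over the blood-derived classes.

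Among the cysteine cathepsins, which cut proteins in the acid lumen, Ctsb was the leading gene of Kupffer-like cells at 2483 CPM in FL/FL and 3066 in ΔMAC, against 34.0 and 33.2 in B-like cells. Lgmn, the asparaginyl endopeptidase that processes cathepsins, stood at 1268 and 1607 CPM in Kupffer-like cells and at 705 and 566 in endothelial-like cells, but at 4.75 and 4.11 in T-like cells. Ctss, the cathepsin that trims the invariant chain of MHC class II, was highest in lipid-associated macrophage-like cells in FL/FL (2755 CPM) and in Kupffer-like cells in ΔMAC (1696), and was also high in classical monocyte-like cells (1095 and 1479). The antigen-presenting classes shared Ctss and Ctsh but differed in Ctsl. Ctsh, an aminopeptidase, stood at 861 and 1005 CPM in plasmacytoid dendritic-like, 645 and 591 in type 2 dendritic-like and 304 and 270 in B-like cells, and at 4.29 and 4.56 in NK or ILC1-like cells. Ctsl was instead a gene of non-blood cells and of 1 dendritic class, at 1163 and 1510 CPM in mesothelial-like, 1181 and 1082 in endothelial-like and 926 and 1116 in plasmacytoid dendritic-like cells, against 23.6 and 30.1 in type 2 dendritic-like cells. Ctsc, which activates granule serine proteases, was highest in Kupffer-like cells at 730 and 991 CPM. Ctsz, a carboxypeptidase, reached 1140 and 801 CPM in lipid-associated macrophage-like cells. Ctsk, the collagen-degrading cathepsin of osteoclasts, gave 70 UMIs in all, 24 of them in FL/FL lipid-associated macrophage-like cells (43.8 CPM).

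The aspartic protease Ctsd had a distribution of its own. It was the leading lysosomal gene of neutrophil-like cells (1040 CPM in FL/FL and 950 in ΔMAC), stood at 376 and 421 in NK or ILC1-like cells, and was at 14.8 and 11.2 in type 1 dendritic-like cells, on 7 UMIs in each library. Its level in Kupffer-like cells was 1357 and 1544 CPM. Ctsa, a serine carboxypeptidase that also protects Neu1 and the beta-galactosidase, stood at 390 CPM in Kupffer-like cells of both libraries.

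The glycosidases were present at lower levels. Hexa, a subunit of beta-hexosaminidase, was at 296 and 390 CPM in Kupffer-like cells, Gusb, the beta-glucuronidase, at 106 and 115, and Man2b1, the alpha-mannosidase, at 234 and 215. Neu1, the sialidase, was highest in neutrophil-like cells in FL/FL (155 and 115 CPM) and in Kupffer-like cells in ΔMAC (145), and stood at 102 and 96.4 in B-like cells, above its 86.1 and 61.8 in classical monocyte-like cells. Gaa, the acid glucosidase that breaks down glycogen, was highest outside the blood lineage, at 193 and 116 CPM in stellate or fibroblast-like cells, and gave 6 and 2 UMIs in Kupffer-like cells.

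Psap, the precursor of the saposins that help lipid hydrolases, was the most abundant of the 29 genes in lipid-associated macrophage-like cells (5374 and 3357 CPM), plasmacytoid dendritic-like cells (3129 and 2802), type 1 dendritic-like cells (2666 and 2509) and classical monocyte-like cells (2410 and 2779). Grn, the progranulin gene, was highest in plasmacytoid dendritic-like cells at 1101 and 1081 CPM and stood at 641 and 802 in Kupffer-like cells. These 2 precursors gave 35.5% of the 29 genes' UMIs in FL/FL plasmacytoid dendritic-like cells and 12.9% in Kupffer-like cells, where cysteine cathepsins and legumain gave 46.2%.

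**Figure D3:**
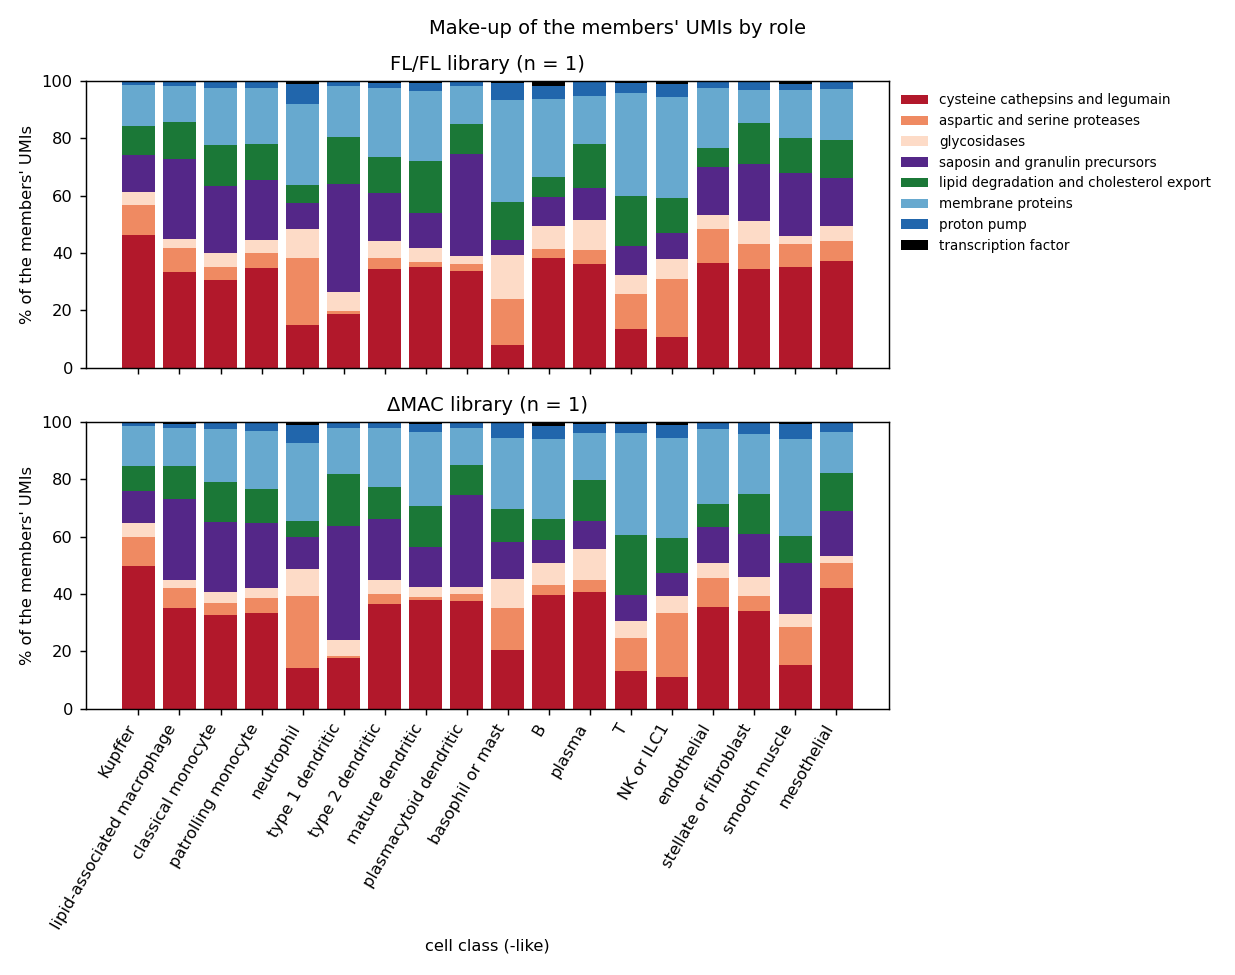
Share of the 29 genes' UMIs (y axis, percent) that fell to each role, by class (x axis), in the FL/FL and ΔMAC libraries. In FL/FL, cysteine cathepsins and legumain take 46.2% in Kupffer-like cells and 13.4% in T-like cells, where membrane proteins take 35.8%.

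Of the lipid genes, Npc2, the soluble cholesterol carrier, was abundant in most myeloid classes (1310 and 1440 CPM in classical monocyte-like cells) and in T-like cells (283 and 307). Npc1, its membrane partner, was highest in plasmacytoid dendritic-like cells at 146 and 193 CPM. Asah1, the acid ceramidase, was highest in Kupffer-like cells at 272 and 323 CPM. Among the membrane proteins, Lamp1 stood at 763 and 932 CPM in Kupffer-like cells. Lamp2 and Scarb2, the receptor that carries glucocerebrosidase to lysosomes, were highest in endothelial-like cells, at 708 and 945 and at 223 and 260 CPM. Cd68, a macrophage marker, was at 396 and 445 CPM in Kupffer-like cells and at 7.36 and 6.69 in T-like cells. Laptm5, a lysosomal protein of blood cells, was the most even of the 29, with its highest class at 1.78 times the median class, and it led the list in B-like, T-like and NK or ILC1-like cells. The V-ATPase subunits Atp6v0d1 and Atp6v1a stood at 255 and 204 and at 91.9 and 64.8 CPM in neutrophil-like cells. Tfeb was low everywhere, at or below 72.8 CPM in all 18 classes of both libraries.

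These levels in lymphocytes were set beside RNA that leaks from macrophages into the suspension. C1qa, a complement gene of Kupffer cells, stood at 2988 and 3908 CPM in Kupffer-like cells and at 0.950 and 1.53 in T-like cells, 0.0318% and 0.0391% of the Kupffer-like level. The 29 genes reached a median of 12.4% (FL/FL) and 9.92% (ΔMAC) of their Kupffer-like level in T-like cells. Lgmn, the lowest there, reached 0.375% and 0.256%, also above the share of C1qa. C1qa speaks for Kupffer-like cells only, and genes of other myeloid cells stood higher in T-like cells. Lyz2 was at 4141 and 96.5 CPM in Kupffer-like and 29.7 and 0 in T-like cells. S100a8 was at 293 and 1381 in Kupffer-like and 32.1 and 61.9 in T-like cells. The part of leaked RNA in the lymphocyte levels was not tested.

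In Kupffer-like cells (143 in FL/FL and 128 in ΔMAC) the summed level of the 29 genes was 1.63% and 1.87% of UMIs, a ratio of 1.15 (1.10 to 1.19). Of the 25 genes measured (at least 20 UMIs over both libraries), 0 were at least 1.5-fold lower in ΔMAC, where 18.9% of all measured genes were, and 1 was at least 1.5-fold higher, against 12% of all genes. That gene was Neu1, whose interval included 1 (91.6 and 145 CPM, ratio 1.58, 0.960 to 2.62). The median log2 ratio was 0.19 for the 25 and -0.07 for all genes. The 7 intervals that lay above 1 were those of Ctsb, Ctsc, Ctsh, Ctss, Lgmn, Grn and Lamp1, and 0 lay below, where 6.38% of all measured genes lay above and 8.77% below. Such intervals narrow with UMIs, so abundant genes have them clear of 1 more often. Ctsc went from 730 to 991 CPM (ratio 1.36, 1.14 to 1.62), Ctsh from 724 to 932 (1.29) and Ctsb from 2483 to 3066 (1.24, 1.12 to 1.36). Hexa had a ratio of 1.32 whose interval reached 0.993. Over the alternatives run, the log2 ratio of Ctsc (0.44) ranged from 0.16 to 0.51. That of Hexa (0.40) ranged from 0.038 to 0.54 and that of Ctsh (0.36) from 0.23 to 0.50. The lowest ratios were those of Lipa (352 and 308 CPM, 0.876), Psap (1469 and 1292, 0.879) and Man2b1 (0.922), and their intervals included 1. Their direction also depended on the setting, with log2 ratios of up to 0.13 for Psap with doublets kept, 0.05 for Man2b1 and 0.0049 for Lipa, and down to -0.54 for Psap and Lipa and -0.50 for Man2b1. The summed direction turned when each cell was given equal weight (ratio 0.964). The class's own markers (10 of 10 detected in both) summed to 18172 CPM in FL/FL and 24194 in ΔMAC. The summed neutrophil markers in these cells were 958 CPM in FL/FL (7 of 8 markers detected, Cxcr2 at 0) and 3259 in ΔMAC (8 of 8). Erythroid markers summed to 1034 CPM (4 of 5, Alas2 at 0) and 11.1 (2 of 5, with Hba-a1, Hbb-bt and Alas2 at 0). Classical monocyte markers, Lyz2 among them, summed to 4513 and 401 CPM (7 of 8 in both, Vcan at 0). The median mitochondrial share of these cells was 1.02% and 0.218%. The part of these differences in the ratio was not tested.

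Classical monocyte-like cells (198 and 109) gave a summed share of 1.13% and 1.27%, a ratio of 1.12 (1.10 to 1.15). Of 28 genes, 1 was at least 1.5-fold lower (background 14.6%) and 0 were higher (background 7.29%). The lower gene was Gaa, with 29 and 6 UMIs (ratio 0.411, 0.139 to 1.01), and 0 were lower after each cell was thinned to 500 UMIs. Intervals of 9 genes lay above 1 (background 7.85%) and that of 1 gene, Neu1, lay below (background 8.82%). Asah1 stood at 150 and 218 CPM (ratio 1.45, 1.20 to 1.76), Lamp2 at 295 and 398 (1.35, 1.18 to 1.55) and Ctss at 1095 and 1479 (1.35, 1.26 to 1.45). The lowest ratios were those of Neu1 (86.1 and 61.8 CPM, 0.718, 0.518 to 0.984), Lipa (0.783, 0.603 to 1.01) and Man2b1 (211 and 188 CPM, 0.891). The 9 were Ctsb, Ctsc, Ctsl, Ctss, Psap, Grn, Asah1, Npc2 and Lamp2, each under 1.5-fold, and they took in proteases, precursors, lipid genes and a membrane protein. Thinned to 500 UMIs per cell, the log2 ratio of Asah1 turned to -0.25 and that of Neu1 was -2.46. Here and below, thinned values of single genes come from 1 random draw without a minimum count. Some of them rest on few UMIs, so their turns can be counting error. Neutrophil markers in these cells summed to 238 CPM in FL/FL (8 of 8) and 702 in ΔMAC (7 of 8, Cxcr2 at 0), and their part was not tested.

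In neutrophil-like cells (745 and 707) the summed share was 0.496% and 0.411%, a ratio of 0.827 (0.802 to 0.853). This was the class whose genes as a whole shifted most among the 9: the median log2 ratio of all 6996 measured genes was -0.34, and that of the 28 lysosomal genes -0.39. The 8 genes at least 1.5-fold lower were close to the background of 30.2%, and 0 were higher (background 3.19%). When the libraries were scaled by the median gene, the summed ratio was 1.04 and 1 gene, Lipa, was still at least 1.5-fold lower. The neutrophil markers themselves took 105742 CPM in FL/FL and 168238 in ΔMAC (8 of 8 detected in both), and their part in the shift was not tested. Lipa went from 83.7 to 42.7 CPM (ratio 0.509, 0.382 to 0.674), Ctsh from 141 to 77.0 (0.547, 0.442 to 0.675) and Scarb2 from 95.2 to 53.7 (0.564, 0.435 to 0.727). The other 5 were Gusb, Hexa, Lgmn, Cd68 and Tfeb. At the other end were Psap (366 and 396 CPM, 1.08, 0.971 to 1.20), Ctss (84.3 and 79.2, 0.940) and Ctsd (1040 and 950, 0.913). Scaled by the median gene, the log2 ratio of Ctsd turned to 0.21 and that of Ctss to 0.25.

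**Figure D4:**
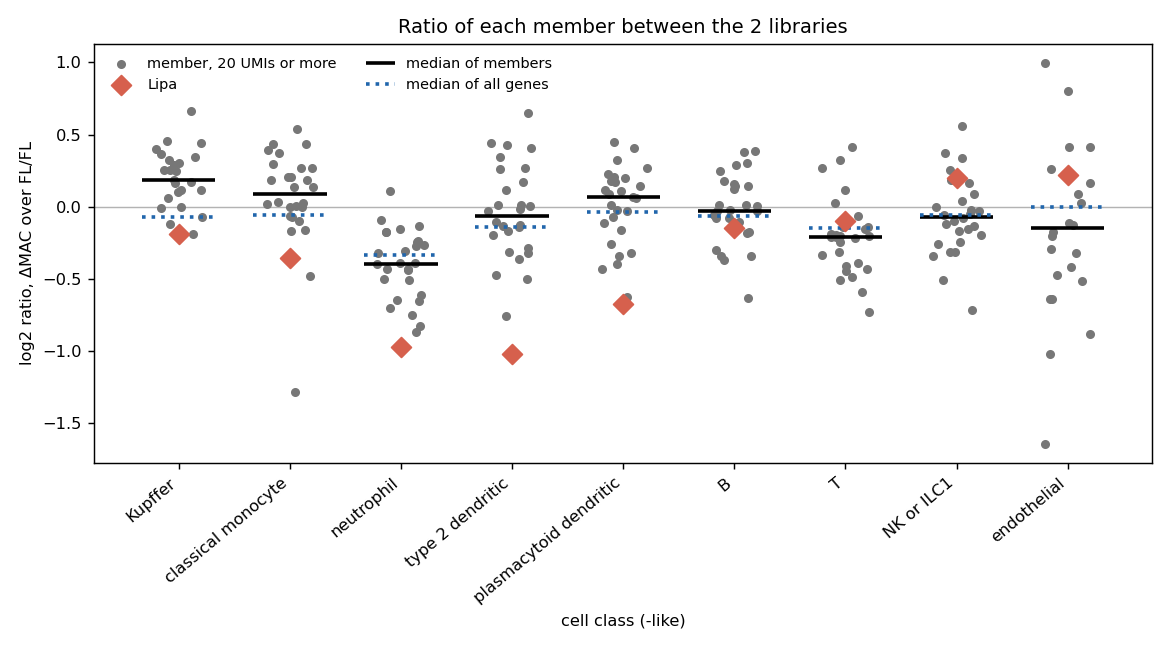
Log2 ratio, ΔMAC over FL/FL (y axis), of each measured gene of the 29 in the 9 compared classes (x axis), with the median of the members and of all genes marked. Neutrophil-like cells have the lowest all-gene median (-0.34), and Kupffer-like cells the highest member median (0.19).

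In type 2 dendritic-like cells (156 and 106) the summed share was 0.703% and 0.710%, a ratio of 1.01 (0.982 to 1.04). Of 28 genes, 2 were at least 1.5-fold lower (Lipa and Gaa, background 17.7%) and 1 was higher (Lgmn, background 7.38%). Lgmn stood at 79.2 and 124 CPM (ratio 1.57, 1.22 to 2.0), Psap at 978 and 1315 (1.35, 1.25 to 1.45) and Ctsd at 55 and 74.7 (1.36, 0.998 to 1.85). The log2 ratio of Ctsd turned to -1.76 after thinning to 500 UMIs per cell. Lipa was at 83.3 and 41.0 CPM (0.492, 0.344 to 0.693), Man2b1 at 200 and 144 (0.721, 0.593 to 0.873) and Tfeb at 42.6 and 30.1 (0.707, 0.453 to 1.08). The nearly equal sum thus covered single genes that differed in both directions.

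Plasmacytoid dendritic-like cells (160 and 266) also had nearly equal sums, 1.19% and 1.21% (ratio 1.02, 0.997 to 1.04). Of 28 genes, 2 were at least 1.5-fold lower (Lipa and Tfeb, background 12%) and 0 were higher (background 8.57%). Lipa stood at 47.3 and 29.7 CPM (ratio 0.628, 0.433 to 0.911), Tfeb at 35.9 and 23.3 (0.649, 0.424 to 0.994), Lgmn at 58.0 and 43.1 (0.743, 0.540 to 1.02) and Gusb at 100 and 78.7 (0.788). Atp6v0d1 was at 112 and 153 CPM (1.36, 1.12 to 1.67), Npc1 at 146 and 193 (1.33, 1.11 to 1.58) and Lamp2 at 137 and 171 (1.25, 1.04 to 1.51). After thinning to 500 UMIs the log2 ratio of Lamp2 turned to -0.60 and that of Gusb to 1.73.

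In B-like cells (1985 and 2148) the ratio of the sums was 0.979 (0.958 to 1.0), 1 of 28 genes was at least 1.5-fold lower (Man2b1, background 7.97%) and 0 were higher (background 4.59%). Man2b1 stood at 42.6 and 27.5 CPM (ratio 0.645, 0.529 to 0.784), but 0 genes were lower with doublets kept, after thinning, with the mean of the cells' own CPM and with scaling by the median gene, where its log2 ratio was -0.56, -0.34, -0.56 and -0.57. Psap was at 244 and 188 (0.773) and Scarb2 at 29 and 22.9 (0.790). Higher in ΔMAC were Ctsz (171 and 223 CPM, 1.30, 1.20 to 1.41), Lgmn (48.2 and 62.7, 1.30) and Ctsl (11.2 and 13.8, 1.23), the last with an interval that included 1. In T-like cells (2064 and 1632) the ratio of the sums was 0.899 (0.882 to 0.916), 2 of 28 genes were lower (Ctsb and Ctsh, background 13.2%) and 0 higher (background 4.61%), with a median log2 ratio of -0.21 against -0.15 for all genes. Ctsb went from 77.2 to 51.3 CPM (0.665, 0.598 to 0.740), Ctsh rested on 88 and 44 UMIs, and Grn was at 13.5 and 9.47 CPM (0.703, 0.543 to 0.907). With doublets kept, with the mean of the cells' own CPM and with scaling by the median gene, 0 genes were lower. Thinned to 500 UMIs per cell, the log2 ratio of Ctsb was -0.18, and those of Ctsh and Grn turned to 0.66 and 0.87. Ctsc (47.6 and 59.5 CPM, 1.25, 1.12 to 1.40) and Ctsl (13.8 and 18.4, 1.33) were higher, and Npc1 was at 18.3 and 22.0 (1.20, 0.998 to 1.45). In NK or ILC1-like cells (2176 and 1580) the ratio of the sums was 0.969 (0.950 to 0.987), 1 of 28 genes was lower (Ctss, background 6.75%) and 0 higher (background 4.32%). Ctss stood at 47.4 and 28.9 CPM (0.609, 0.523 to 0.708), Man2b1 at 39.0 and 27.5 (0.705) and Ctsa at 49.9 and 39.4 (0.789). Npc1 (21.6 and 31.8 CPM, 1.48, 1.24 to 1.75), Ctsc (66.3 and 85.8, 1.29) and Ctsl (13.1 and 16.6, 1.26, 1.0 to 1.59) were higher.

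Endothelial-like cells (76 and 118) had a summed share of 0.819% and 0.734%, a ratio of 0.896 (0.842 to 0.954). Of 24 genes measured, 5 were at least 1.5-fold lower (background 14.7%) and 2 higher (background 11.2%). The lower genes were Ctss (128 and 41.1 CPM), Grn (314 and 155, ratio 0.494, 0.325 to 0.734), Hexa, Ctsz and Gusb, and the higher ones Asah1 (64.1 and 128) and Neu1. Psap (1075 and 776 CPM, 0.722) and Ctsd (852 and 639, 0.750) were also lower, and Lamp2 (708 and 945, 1.33, 1.10 to 1.62), Scarb2 (1.17) and Laptm5 (1.12) were at the upper end. The last 2 turned, Scarb2 to a log2 ratio of -0.63 after thinning to 500 UMIs, and Laptm5 to -1.04 with 4 markers required and -0.48 with the mean of the cells' own CPM, against 1.54 after thinning. Grn had a log2 ratio of -0.22 after thinning. Over the alternatives run, the log2 ratio of Psap ranged from -0.85 to -0.11 and that of Ctsd from -0.91 to -0.0075. The smallest differences of both came with the mean of the cells' own CPM. With 4 markers required they were -0.11 for Psap and -0.082 for Ctsd. These cells differed in depth, with medians of 3206 UMIs in FL/FL and 960.5 in ΔMAC, and the sum of Kupffer markers in them was 290 CPM (9 of 10 detected, Timd4 at 0) and 173 (5 of 10, with Vsig4, Timd4, C1qc, Marco and Folr2 at 0). With 4 markers required instead of 3 the summed ratio was 1.11, and in cells of at least 2000 UMIs, an alternative chosen after seeing the data, it was 0.767. The part of depth was not tested.

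Lipid-associated macrophage-like cells were few in ΔMAC (42 and 11), so their comparison is given with its alternatives. The summed share was 2.06% and 1.33% (ratio 0.648, 0.613 to 0.684), and of 28 genes 15 were at least 1.5-fold lower (background 25.7%) and 1 was higher (background 18.5%). Psap stood at 5374 and 3357 CPM, Ctss at 2755 and 1173, Lamp1 at 1092 and 509, Lipa at 970 and 364 and Man2b1 at 148 and 36.4. Ctsk gave 24 UMIs in FL/FL and 0 in ΔMAC, at least 1.60-fold lower against a floor of 3 counts. The higher gene was Lgmn (392 and 700 CPM, 1.79, 1.36 to 2.33). The class's own markers (8 of 8 detected in both) summed to 4818 CPM in FL/FL and 2065 in ΔMAC, and Kupffer markers to 963 (4 of 10 detected) and 18.2 (2 of 10), with Clec4f, Vsig4, Cd5l, Timd4, Marco and Folr2 at 0 in both. Their part in the comparison was not tested. The summed ratio turned to 1.09 when 4 markers were required (36 and 5 cells), and was 0.905 with 8 genes lower when a UMI of Gpnmb or Trem2 was required (39 and 7 cells, chosen after seeing the data). It was 0.703 with doublets kept, and 0.601 with 5 genes lower and 0 higher after thinning to 500 UMIs. One ΔMAC cell held 319 of the 1465 UMIs, and without it the ratio was 0.555. Mature dendritic-like cells (67 and 20) gave 0.686% and 0.561% (ratio 0.818, 0.759 to 0.881). Of 26 genes, 10 were lower (background 22.7%) and 0 higher (background 12.5%), among them Npc2 (1091 and 690 CPM).

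Lipa lies on chromosome 19 (34492318 to 34527474, minus strand, ENSMUSG00000024781), and its enzyme hydrolyses cholesteryl esters and triglycerides in the lysosome. Among members with at least 100 UMIs, Lipa most often had the lowest ratio in the compared myeloid classes. It was lowest in Kupffer-like, neutrophil-like, type 2 dendritic-like and plasmacytoid dendritic-like cells, but not in classical monocyte-like cells. Its level followed the macrophage classes, from 970 and 364 CPM in lipid-associated macrophage-like and 352 and 308 in Kupffer-like cells through 194 and 156 in patrolling monocyte-like and 123 and 96.7 in classical monocyte-like cells to 18.1 and 16.3 in B-like cells. In FL/FL the counting intervals of these 4 myeloid classes did not overlap, whereas that of endothelial-like cells (110 CPM) overlapped that of classical monocyte-like cells, and neutrophil-like (83.7) and type 2 dendritic-like cells (83.3) could not be ordered. In patrolling monocyte-like cells 1 cell held 18 of the 62 FL/FL Lipa UMIs, and 1 cell held 8 of the 18 in ΔMAC. Counting intervals do not cover such spread between cells, and the order without these cells was not tested. Of the 14 classes in which Lipa was measured, 10 had a ratio below 1, with 5 intervals below 1 and 0 above. Over all measured pairs of a gene and 1 of the 18 classes, 15.6% of intervals lay below 1 and 8.23% above.

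In neutrophil-like and type 2 dendritic-like cells the Lipa UMIs were spread over many cells. In neutrophil-like cells 153 UMIs lay in 89 of 745 FL/FL cells and 77 in 62 of 707 ΔMAC cells, and the FL/FL cell with the most held 9.80%. In type 2 dendritic-like cells 141 UMIs lay in 77 of 156 and 45 in 33 of 106 cells. Over the alternatives run, the log2 ratio of Lipa stayed between -1.19 and -0.64 in neutrophil-like, -1.76 and -0.84 in type 2 dendritic-like and -0.70 and -0.32 in plasmacytoid dendritic-like cells. Mature dendritic-like cells gave 42 and 3 UMIs (77.6 and 19.3 CPM, ratio 0.249, 0.0495 to 0.781). T-like cells (30.5 and 28.4 CPM, 0.932, 0.798 to 1.09) and NK or ILC1-like cells (19.7 and 22.6, 1.15, 0.944 to 1.39) had ratios whose intervals included 1, as had type 1 dendritic-like (40.2 and 43.3) and endothelial-like cells (110 and 128, with a log2 ratio of -0.63 after thinning). The difference of these ratios between classes was not tested.

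**Figure D5:**
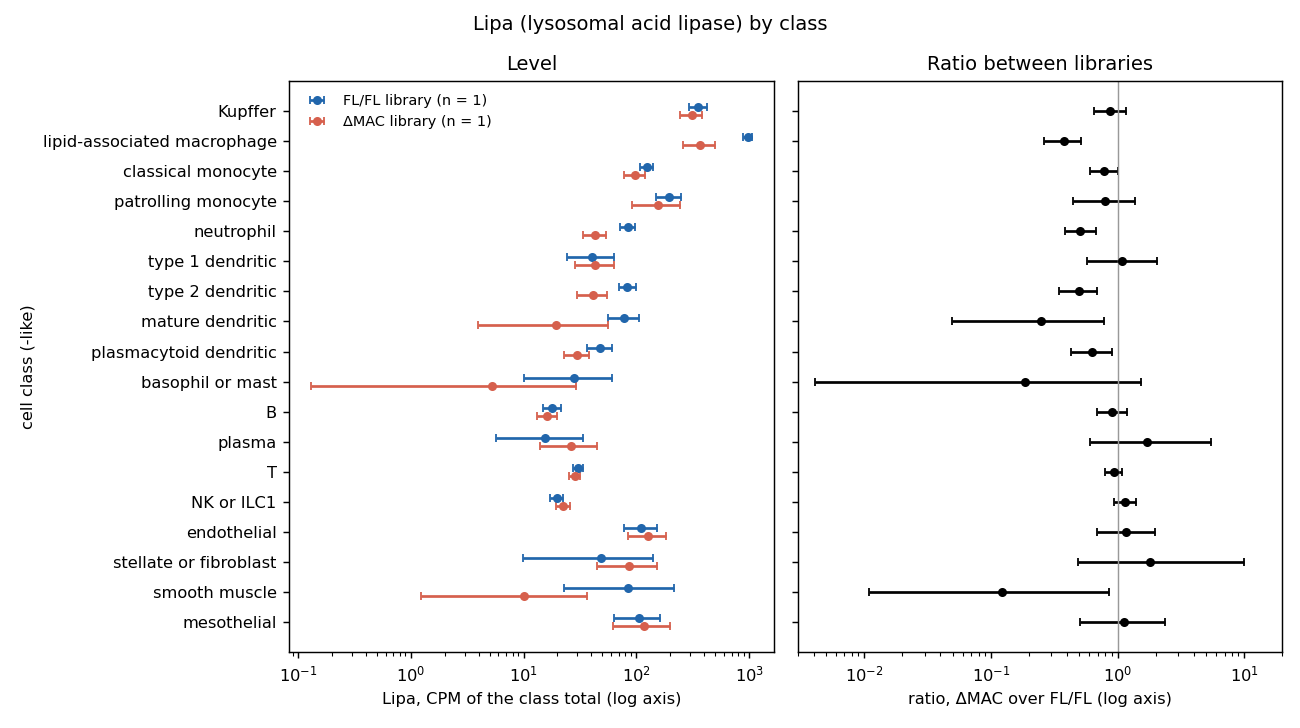
Lipa by class (y axis): the level as CPM in the FL/FL and ΔMAC libraries on a log axis (left) and the ratio, ΔMAC over FL/FL, on a log axis (right), each with its exact 95% counting interval. The ratio lies below 1 with its interval in neutrophil-like (0.509), type 2 dendritic-like (0.492) and plasmacytoid dendritic-like cells (0.628).

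Man2b1, on chromosome 8 (85083270 to 85098282, plus strand), was the member with the most intervals below 1, in 8 of 16 classes, and in contrast to Lipa these took in all 3 large lymphocyte classes. Its ratio was 0.645 in B-like, 0.705 in NK or ILC1-like, 0.713 in T-like, 0.721 in type 2 dendritic-like and 0.637 in type 1 dendritic-like cells (252 and 160 CPM). In neutrophil-like cells it was 0.843 (223 and 188 CPM), and the log2 ratio turned to 0.09 when the libraries were scaled by the median gene. Plasma-like cells were the exception, at 62.1 and 108 CPM (1.73, 1.05 to 2.94). Ctsc showed the reverse pattern, with 7 of 14 intervals above 1 and 0 below. Tfeb, the regulator itself, had a ratio below 1 in all 7 compared classes in which it was measured. Its interval lay below 1 in 3 of them (neutrophil-like, plasmacytoid dendritic-like and B-like cells). The median log2 ratio of all genes was also below 0 in each compared class, from -0.34 in neutrophil-like to -0.0046 in endothelial-like cells. Over all classes Tfeb was below 1 in 8 of 10. It was higher in ΔMAC in lipid-associated macrophage-like (62.0 and 72.8 CPM) and type 1 dendritic-like cells (19.0 and 22.5). The B-like levels of Tfeb were 43.7 and 34.6 CPM (0.791, 0.659 to 0.948).

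The other lysosomal genes were read from a list of 80 further hydrolases, membrane proteins, pump subunits, sorting factors and protease inhibitors. In Kupffer-like cells 4 of 45 measured were at least 1.5-fold lower in ΔMAC and 6 higher, in neutrophil-like cells 16 of 58 and 0, in type 2 dendritic-like cells 4 of 60 and 8, and in T-like cells 17 of 76 and 2. Classical monocyte-like cells had 5 of 67 and 6, plasmacytoid dendritic-like cells 7 of 68 and 7, B-like cells 7 of 72 and 1, NK or ILC1-like cells 4 of 75 and 4, and endothelial-like cells 10 of 38 and 4. The shares of all genes given for each class above are the background of these counts: the neutrophil-like count was close to its 30.2%, and the counts of lower genes in T-like and endothelial-like cells lay above 13.2% and 14.7%. Cst3, cystatin C, an inhibitor of cysteine cathepsins, was at 1499 and 2991 CPM in Kupffer-like cells (ratio 2.0, 1.78 to 2.24), 2274 and 4122 in type 2 dendritic-like cells (1.81, 1.74 to 1.89), 519 and 904 in endothelial-like cells (1.74, 1.41 to 2.15) and 830 and 1111 in neutrophil-like cells (1.34, 1.25 to 1.43). Cstb, a cytosolic cathepsin inhibitor, stood at 194 and 316 CPM in classical monocyte-like cells (1.63, 1.38 to 1.91) and at 64.9 and 106 in plasmacytoid dendritic-like cells (1.64, 1.27 to 2.14).

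Ctse, an aspartic protease of endosomes, was low in ΔMAC in several classes, at 32.3 and 12.7 CPM in neutrophil-like cells (ratio 0.395, 0.233 to 0.649), 9.97 and 3.54 in T-like cells (0.355, 0.239 to 0.515) and 14.0 and 6.43 in NK or ILC1-like cells (0.459, 0.332 to 0.625). Sgsh, a heparan sulfatase, was at 11.9 and 5.16 CPM in T-like cells (0.435) and 15.3 and 8.30 in NK or ILC1-like cells (0.542). Tpp1, a tripeptidyl peptidase, stood at 24.6 and 9.97 CPM in neutrophil-like cells (0.405) and 208 and 95.9 in endothelial-like cells (0.462). Gm2a, the activator protein of hexosaminidase, was at 287 and 490 CPM in Kupffer-like cells (1.71, 1.30 to 2.24), where the tetraspanin Cd63 gave 53 and 4 UMIs. Others at the ends of the ranges were Atp6ap1 in Kupffer-like cells (0.645), Hgsnat (0.582), Sumf1 (0.677) and Atp6ap2 (1.67) in classical monocyte-like cells, and Gnptab (0.379), Sidt2 (0.657) and Ctsw (2.54) in type 2 dendritic-like cells. Prcp was at 242 and 169 CPM (0.698) and Aga at 19.1 and 34.2 (1.79) in plasmacytoid dendritic-like cells, where Ctse was at 22.1 and 14.4 (0.649). Atp6ap2 was at 133 and 174 CPM in neutrophil-like cells (1.31). In endothelial-like cells M6pr was at 119 and 73.0 CPM (0.613) and Ctsw at 73.3 and 137 (1.87). In T-like cells Scpep1 was at 8.79 and 13.8 CPM (1.57) and Mcoln1 at 6.81 and 8.60 (1.26), and in NK or ILC1-like cells Dpp7 was at 1.94 and 3.04 (1.56) and Cd63 at 5.02 and 7.71 (1.54). In B-like cells Cd63 gave 52 and 9 UMIs (0.188), Mcoln1 was at 8.34 and 12.0 CPM (1.44) and Tpcn2 at 5.01 and 7.08 (1.41). Also in B-like cells, 175 of the 176 FL/FL UMIs of Ctsg lay in 1 cell, so its ratio there describes that cell.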

How the data were processed

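The deposited files are 10x matrices of UMI counts per gene and cell, 1 per genotype. Cell Ranger 6.0.0 made them, per the file headers, and the submitters' processing notes name build mm10 and Seurat 4.3.0. The labels do not settle the version of the 3′ kit, nor say how many mice were used. The 2 tables share 17 barcodes.

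From these counts, cells with at least 300 genes and under 20% mitochondrial UMIs were kept, and doublets called by Scrublet (in scanpy 1.11.5, expected rate 0.08) were removed, 480 in FL/FL (4.80%) and 328 in ΔMAC (3.69%). A cell joined a class when at least 3 markers of its list were detected and its score, with each marker weighted by its rarity, was 1.25 times the next. The 21 lists hold 161 markers. UMIs were summed per class and library and divided by the class total. A class is called -like because it rests on this gate alone. Ratios have exact conditional binomial intervals and levels exact Poisson intervals (95%, scipy 1.17.1). Genes with 20 or more UMIs in a class, libraries combined, were counted as lower or higher from 1.5-fold on, and the share of all genes so counted is given as background. The fold count and the intervals were tested on class sums simulated with counting error alone. That check holds no spread between cells or libraries. Values are given in full for the 3 highest and 3 lowest ratios per compared class among members with at least 100 UMIs and for the most abundant members, and for the 2 highest and 2 lowest other lysosomal genes with at least 50 UMIs. Genes were matched to positions by their identifiers, and promoter windows by symbol. The members and lists were chosen with earlier results of these data known. Figures were drawn with matplotlib 3.10.9, and tables with Python 3.11.15, pandas 2.3.3, numpy 2.4.6 and anndata 0.12.19.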

Additional observations from a re-analysis of the deposited data

Results flagged for a closer look

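In 6 of the 29 genes the ratio between the libraries passed 1.5-fold in opposite directions in different classes, with counting intervals clear of 1 in both. This is 21.4% of the 28 genes measured in at least 2 classes, against 7.86% of all 11507 such genes, and abundant genes have intervals clear of 1 more often. With 1 library per genotype the difference between the classes was not tested. Values are log2 ratios, ΔMAC over FL/FL, and the class with the largest difference on each side is given. Ctsb was -1.17 in mature dendritic-like and 2.75 in basophil or mast-like cells. Ctsl was -2.42 in smooth muscle-like and 2.75 in basophil or mast-like cells. Psap was -0.68 in lipid-associated macrophage-like and 1.84 in basophil or mast-like cells. The basophil or mast-like values rest on 29 ΔMAC cells, of which 1 held 120 of the 533 UMIs of the 29 genes, with 40 of the 54 Psap, 13 of the 18 Ctsb and 16 of the 24 Ctsl UMIs. Ctss was -1.64 in endothelial-like and 1.08 in plasma-like cells. Man2b1 was -2.02 in lipid-associated macrophage-like cells, where ΔMAC had 4 UMIs, and 0.79 in plasma-like cells. Lamp1 was -1.10 in lipid-associated macrophage-like and 1.26 in smooth muscle-like cells, a class of 11 FL/FL and 42 ΔMAC cells in which 1 FL/FL cell held 10 of the 13 Ctsl UMIs.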

How the results depend on the processing

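With 1 library per genotype, no setting bears on variation between mice, and counting error sets the precision: genes under 20 UMIs in a class were not counted as lower or higher. No paired analysis was possible because the labels give no replicate numbers. Of the alternatives run in the 9 compared classes, 55 of 82 summed ratios, 69 of 91 counts of lower genes and 72 of 91 counts of higher genes stayed within their limits (the counting interval of the ratio, 1.5 times the count). Of the values of 72 single log2 ratios, 534 of 599 did, 61 moved and 4 turned past their interval, and 24 of the 72 changed sign under at least 1 setting. The summed ratios and counts that moved in the 9 classes follow, with single genes that turned, and their cause was not tested. In smaller classes, other moved values stand in the text or are not listed. Single-gene values after thinning come from 1 random draw without a minimum count, and some rest on few UMIs. Summed ratios ranged from 1.12 to 1.20 in classical monocyte-like, 0.895 to 0.996 in T-like and 1.01 to 1.06 in plasmacytoid dendritic-like cells. With doublets kept, the summed ratio was 1.22 in Kupffer-like cells (2 genes higher), 1.17 in classical monocyte-like cells (1 higher) and 0.855 in neutrophil-like cells (5 lower), with 1 gene lower in plasmacytoid dendritic-like cells and 0 in B-like and T-like cells. With 4 markers required, the summed ratio was 1.20 in Kupffer-like and 1.11 in endothelial-like cells (5 higher), and 1 gene was higher in NK or ILC1-like cells. In lipid-associated macrophage-like cells the same setting gave a summed ratio of 1.09, a median log2 ratio of 0.0887, and log2 ratios of 0.17 for Cd68 and 0.21 for Psap. Thinned to 500 UMIs per cell, the summed ratio was 1.01 in Kupffer-like (0 higher), 1.20 in classical monocyte-like (0 lower, 5 higher), 1.06 in type 2 dendritic-like (1 lower, 2 higher), 0.928 in T-like (1 higher) and 1.0 in NK or ILC1-like cells (3 lower, 2 higher). Thinning also gave 1 gene higher in plasmacytoid dendritic-like cells, 0 lower and 1 higher in B-like cells, 1 lower and 1 higher in endothelial-like cells, and log2 ratios of 0.66 for Ctsh in T-like and 0.52 for Cd68 in lipid-associated macrophage-like cells. With the mean of the cells' own CPM, the summed ratio was 0.964 in Kupffer-like (0 higher), 1.15 in classical monocyte-like (0 lower, 1 higher), 1.01 in B-like (0 lower), 0.931 in T-like (0 lower), 0.998 in NK or ILC1-like (2 higher) and 0.993 in endothelial-like cells, and 1 gene was lower in plasmacytoid dendritic-like cells. Scaled by the median gene, it was 1.20 in Kupffer-like, 1.17 in classical monocyte-like (1 higher), 1.04 in neutrophil-like (1 lower), 1.11 in type 2 dendritic-like, 1.05 in plasmacytoid dendritic-like, 1.03 in B-like (0 lower), 0.996 in T-like (0 lower) and 1.01 in NK or ILC1-like cells (1 higher). With at least 50 UMIs required, 0 genes were lower in classical monocyte-like cells, 1 in type 2 dendritic-like cells, and 3 lower and 0 higher in endothelial-like cells, and with at least 1 UMI 2 were lower in Kupffer-like cells. Without the most abundant gene, the summed ratio was 0.956 in type 2 dendritic-like and 1.06 in plasmacytoid dendritic-like cells. The remaining settings were chosen after seeing the data. With Lyz2 among the markers, 1 gene was higher in classical monocyte-like cells and 1 lower in T-like cells. With a UMI of Gpnmb or Trem2 required, the median log2 ratio in lipid-associated macrophage-like cells was 0.00588. Endothelial-like cells of at least 2000 UMIs gave 0.767 (8 lower). Without the ΔMAC cell with the most UMIs of the 29 genes, the summed ratio of basophil or mast-like cells went from 1.38 to 1.14.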

Other observations

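Basophil or mast-like cells (36 and 29), which enter no comparison of the 9 larger classes, had Laptm5 (514 CPM in FL/FL and 474 in ΔMAC), Ctsd (306 and 370), Npc2 (190 and 255) and Man2b1 (167 and 151) as their 4 most abundant of the 29 genes in FL/FL. In ΔMAC, Psap (78.8 and 281 CPM) ranked above Npc2, and Ctsc (55.6 and 156) above Man2b1, and 1 ΔMAC cell held 40 of the 54 Psap UMIs. Ctsb stood at 13.9 and 93.7 CPM. Stellate or fibroblast-like (11 and 33) and mesothelial-like cells (26 and 30) shared Ctsl as their leading gene, at 773 and 723 and at 1163 and 1510 CPM, followed by Psap (644 and 449, and 601 and 557). Plasma-like cells (27 and 58) stood at 217 and 459 CPM of Ctss and 318 and 351 of Npc2.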
